A study of Arabidopsis thaliana with 12 samples.

Results

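CYN (locus AT3G23490, on chromosome 3) encodes the cyanase of Arabidopsis thaliana, and its transcript level was followed here through 1 probe of an expression array. The platform annotation lists CYN for that probe alone and lists no other gene for it, and it is 1 of 3439 probes in the table, of which 692 are paired with exactly 1 gene and stand for 691 genes. The gene was chosen by its intensities in these same 12 samples, from its level in each group and its fall with proline, so these are given as a description without a test. Total RNA came from wild-type plants of the ecotype Wassilevskija, 6 samples from plants given 100 mM proline for 6 h and 6 from plants given water, with no mutation, transgene or further agent named in either group. The labels do not state the organ, the plant age, the duration of the water treatment or whether each sample came from its own plants. Any difference in duration cannot be told apart from proline.

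Cyanase breaks down cyanate, a small toxic anion, by letting it react with bicarbonate, and the products are ammonia and carbon dioxide. Cyanate forms when carbamoyl phosphate or urea decays and when cyanide is oxidised, so the enzyme stands beside the metabolism of ammonium, bicarbonate and urea. Proline is the amino acid that plants store under drought and salt, and a large external supply of it is toxic to them.

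Intensities run on a linear scale from 0 to 100 in every sample, and precision is limited by how many arrays were made. As deposited, CYN stood at 8.99, 8.44, 12.01, 8.56, 7.65 and 7.31 in water samples 1 to 6. In proline samples 1 to 6 it stood at 2.06, 1.75, 1.69, 1.63, 2.06 and 1.93. The lowest water sample, at 7.31, lay 3.54-fold above the highest proline sample, at 2.06. The groups therefore did not overlap as deposited, before the quantile normalization used here. Any scaling by the authors before that is unknown. The water samples averaged 8.83 ± 1.68 and the proline samples 1.85 ± 0.19 (SD, n = 6 each). These are bulk samples, in which fewer cells that carry the transcript and less transcript per cell cannot be told apart.

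The whole scale differed between the groups. Deposited sample medians ran from 0.171 to 0.188 with water and from 0.213 to 0.361 with proline, and the 10 brightest probes took 27.9% to 30.3% of the summed intensity in water and 21.3% to 24.3% in proline. CYN was lower with proline while the medians were higher, and went from 39.3 to 70.1 times the median of its own sample in water to 4.65 to 9.65 times in proline. The higher medians enlarge the drop in this ratio. Proline samples 3 and 4 had the highest medians of their group, 0.361 and 0.350, and CYN was at 4.68 and 4.65 times the median there, the lowest of the 12 samples. The part of this scale difference in the change of CYN was not tested. Without these 2 samples the log2 fold change of CYN after quantile normalization was -2.37, against -2.41 with all samples.

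After quantile normalization, which gives every sample the same distribution, CYN stood at 9.04, 8.47, 12.04, 9.04, 7.90 and 7.51 in water samples 1 to 6. The proline samples stood at 1.92, 1.50, 1.56, 1.48, 1.86 and 1.77. Water sample 3 was again the highest of its group, and the lowest water value lay 3.91-fold above the highest proline value. Groups that do not overlap, with proline below water, were found for 12.1% of all 3097 tested probes, and since the choice of CYN used this contrast nothing is read from its place among them. The group means were 9.0 ± 1.61 and 1.68 ± 0.19 (SD, n = 6 each). The level with proline was 18.8% of that with water, a 5.32-fold difference between geometric means (log2 fold change -2.41, SE 0.12 from the fit across all probes). The median probe changed by -0.03 on the same scale, where all samples share the same distribution, and by 0.41 in the values as deposited.

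**Figure D1:**
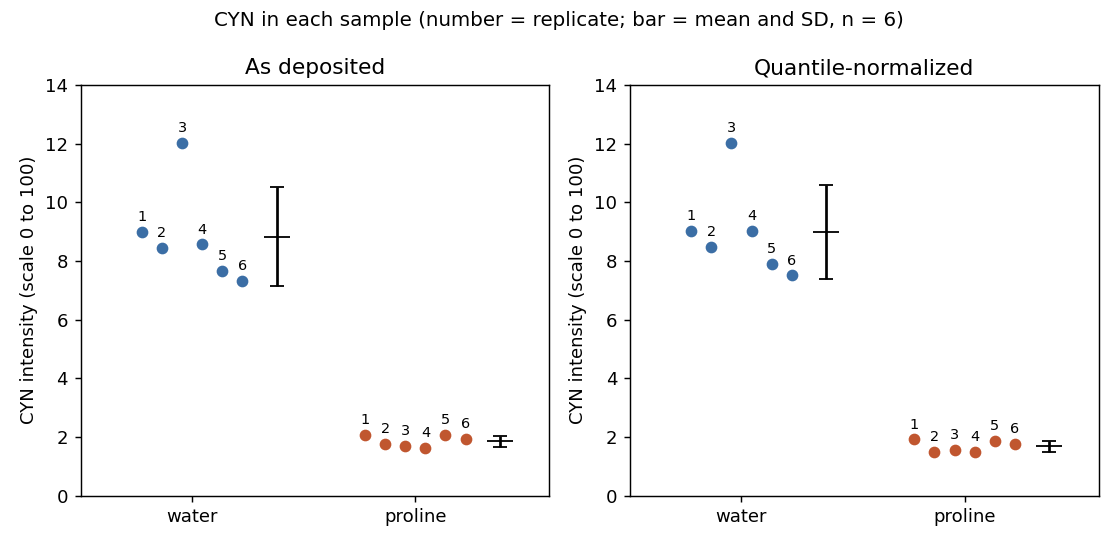
CYN intensity (scale 0 to 100) in each of the 6 water and 6 proline samples, as deposited on the left and quantile-normalized on the right, with replicate numbers above the points and the mean and SD (n = 6) beside each group. All proline samples lie at 2.06 or lower and all water samples at 7.31 or higher on both scales, and water sample 3 stands apart at 12.01 and 12.04.

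Replicate numbers 1 to 6 occur in both groups, and samples of the same number deviated together over the array. Set side by side by number, CYN was lower with proline in 6 of 6 numbers, which any matching would give since the groups did not overlap. The water level was 4.71, 5.65, 7.70, 6.10, 4.25 and 4.25 times the proline level for the numbers 1 to 6. The largest ratio, at number 3, contains the high water sample, and numbers 5 and 6 gave the smallest ones. Without water sample 3 the fold difference was 4.97.

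Within a group the samples 1 and 2, 3 and 4, and 5 and 6 resembled each other, so that 6 values may count repeat measurements. Averaged in these pairs, CYN stood at 8.75, 10.4 and 7.70 in water and at 1.70, 1.52 and 1.81 in proline. The pair means of the groups stayed apart, as they must when the single samples do not overlap. Water samples 3 and 4 differed by 0.41 log2 for CYN, against a median difference of 0.07 for the 200 probes of similar level described below, and 8 of those 200 differed more. Proline samples 1 and 2 differed by 0.36 log2, and 9 of the 200 differed more. In the other 4 pairs CYN differed by 0.07 to 0.09 log2, and 85 to 136 of the 200 probes differed more.

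The SD of CYN on the log2 scale was 0.24 in water and 0.16 in proline. Of the 200 probes of similar level, 62 had a larger SD in water and 138 a larger SD in proline. The median SD of those probes was 0.18 in water and 0.21 in proline. With all samples of each group, CYN was therefore more scattered than most of these probes in water and less scattered than most in proline. The SD in water includes water sample 3, at 3.59 log2, while the other water samples lay between 2.91 and 3.18. The SD without that sample was not computed, and the place of CYN in water may depend on it. The probes were matched to CYN by the mean over all 12 samples and not within a group, where CYN averaged 9.0 and 1.68.

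CYN was one of the brighter probes of the array in water. Ordered by intensity from the brightest, it held place 56, 59, 41, 56, 62 and 65 of 3097 tested probes in water samples 1 to 6. In proline samples 1 to 6 it held place 211, 272, 259, 276, 217 and 229. These places are the same as deposited and after quantile normalization, which keeps the order within a sample. By its group mean it was in place 57 in water and 231 in proline, above 98.2% and 92.5% of the tested probes. The place is one of spot brightness, which also depends on the probe, and is no order of transcript amounts. CYN stayed far from both ends of the scale, and in no sample was it near the floor of 0.0377 below which values were not distinguished.

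The change was set against the 200 tested probes nearest to CYN in geometric mean intensity over all 12 samples. CYN lay at 3.86 on that measure and the 200 probes between 1.58 and 9.01. None of them fell as far as CYN: the steepest other fall was -1.71 on the log2 scale, a 3.26-fold difference, at a probe listed for several genes. The next were -1.66, -1.42 and -1.41, of probes with no gene listed. The middle 90% of the 200 changes ran from -0.96 to 1.65, with a median of -0.11. Only 9 of the 200 fell at least 2-fold, none fell 4-fold, and 16 rose at least 2-fold. In size, 5 of the 200 changed as much as CYN, and all of those rose.

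**Figure D2:**
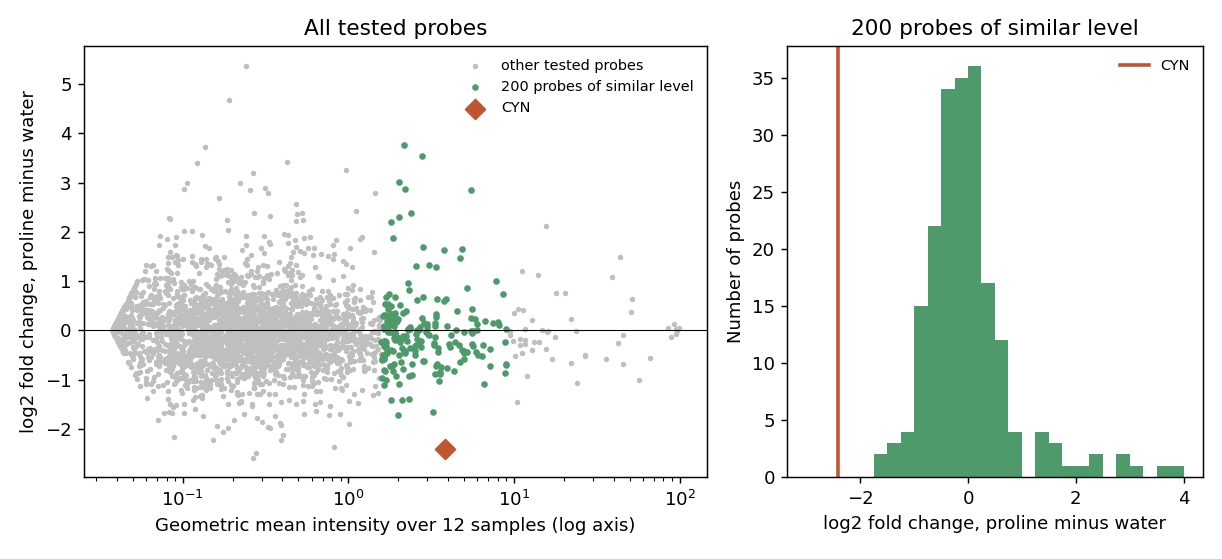
Left, log2 fold change of proline minus water against the geometric mean intensity over 12 samples (log axis) for the tested probes, with the 200 probes of similar level in green and CYN as a diamond. Right, number of those 200 probes in each step of log2 fold change, with CYN as a vertical line at -2.41, below the lowest of them at -1.71.

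Among all 3097 tested probes CYN had the third-lowest log2 fold change, and 24 probes changed as much in size. The 2 steeper falls, -2.58 and -2.47, came from probes with no gene listed. Those probes were dim, at a mean of 0.646 and 0.658 in water and 0.137 and 0.131 in proline. This place depended on the floor, since without a floor 128 probes fell more steeply than CYN, and 127 of these lay at or under 0.0377 in at least 1 proline sample. With the floor at the 20th percentile CYN had the lowest log2 fold change, and likewise without proline sample 3. Among the other 619 tested probes with 1 gene, 28 fell at least 2-fold and 1 at least 4-fold, and none fell as far as CYN.

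Over the array 1176 of 3097 tested probes passed the test (38.0%, limma, Benjamini-Hochberg adjusted p under 0.05), 529 higher with proline (17.1%) and 647 lower (20.9%). With the values as deposited 87.0% of the calls were higher, whereas quantile normalization gave 45.0%, median centring 34.6% and cyclic loess 50.7%. The direction of CYN was the same under all 4 scalings. Its log2 fold change was -2.24 as deposited, -2.86 with median centring and -2.26 with cyclic loess. The median of all probes moved by 0.41, -0.14 and 0.01 in these, and relative to it CYN stood at -2.65, -2.72 and -2.27, against -2.38 after quantile normalization.

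**Figure D3:**
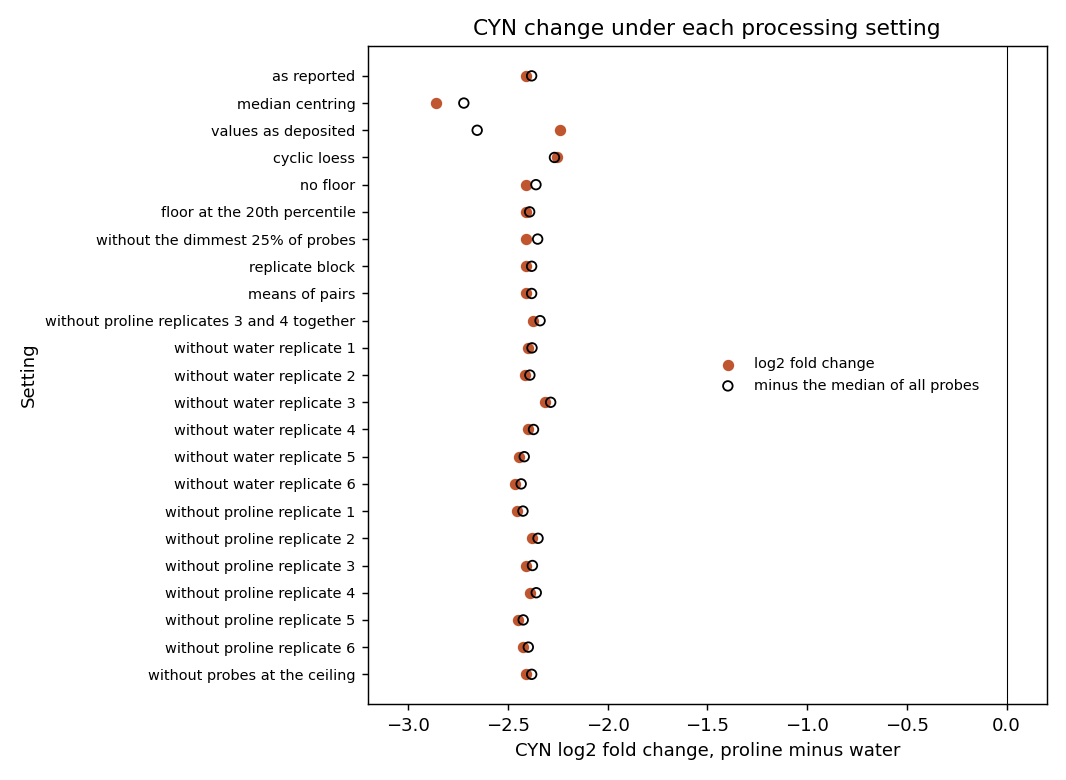
Log2 fold change of CYN, proline minus water (x axis), under the reported processing and each alternative (y axis), as filled points, and the same minus the median of all probes as open circles. All values lie between -2.86 and -2.24, and median centring and the values as deposited show the widest gap between both kinds of point.

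The 2 probes with 1 gene next above CYN in mean intensity were those of AT1G73120 and AT1G07970, and the 2 next below were those of XERICO, a gene named for drought tolerance, and AT5G36470. Among the 200 probes of similar level, 63 passed the limma test with proline below water (31.5%), against 20.9% of all tested probes. AT1G73120 fell 1.70-fold, from 5.15 ± 0.48 with water to 3.04 ± 0.36 with proline (SD, n = 6 each; limma adjusted p = 0.000105). AT5G36470 fell 1.65-fold, from 4.43 ± 1.02 to 2.65 ± 0.43 (limma adjusted p = 0.00369), and did not pass with means of sample pairs (adjusted p = 0.0834, the highest of all alternatives, which began at 0.000376). Both changed less than CYN in these values, and the difference between the changes was not tested. AT1G07970 had a log2 fold change of -0.23 (limma adjusted p = 0.102), and passed under median centring alone (adjusted p = 0.0089, range over alternatives to 0.629). XERICO had -0.36 (limma adjusted p = 0.0738), with 3.19 to 4.77 in water and 2.43 to 3.83 in proline, so that its groups overlapped. XERICO passed with the replicate number as a block (limma adjusted p = 0.0373), and also when water sample 5, water sample 6 or proline sample 1 was left out, but not with means of sample pairs (adjusted p = 0.303). Its adjusted p ran from 0.00577 under median centring to 0.374.

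The genes whose pattern was most like that of CYN were found by the root-mean-square difference between log2 profiles over the 12 samples, each profile centred on its own mean. The measure covers 2 groups that differ, so it mostly finds genes that fell by a similar amount, and it is a description. AT4G25290 was nearest at 0.32, followed by AT2G37510 at 0.42, AT2G21720 at 0.50, AT3G59980 at 0.55 and AT4G33500 at 0.57. A probe with the same value in all samples would have been at 1.22, and the median of the other 619 tested probes with 1 gene was 1.28. A single other probe of the array, with no gene of its own, was nearer than AT4G25290, at 0.23. The tables used here give these 5 loci no further name.

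AT4G25290 had the next-lowest log2 fold change after CYN among probes with 1 gene, -2.35. Its water samples 1 to 6 stood at 1.44, 1.53, 1.81, 2.03, 2.23 and 2.17. Its proline samples 1 to 6 stood at 0.468, 0.370, 0.237, 0.303, 0.475 and 0.371. The groups were apart with proline below water, as for 12.1% of all tested probes, and AT4G25290 was chosen by its likeness to CYN. The order of its samples was not that of CYN: its highest water sample was 5, whereas that of CYN was 3. The fall of AT4G33500 was next, at -1.98, and its proline sample 3 stood at 0.196 while its other proline samples lay at 0.132 or lower. The log2 fold change was -1.70 for both AT2G37510 and AT2G21720 and -1.43 for AT3G59980. Of these 5 genes, AT3G59980 alone shared its highest water sample, number 3, with CYN, at 2.03 against 2.01 in sample 4. The lowest proline sample was number 4 for CYN, AT2G21720 and AT3G59980, number 3 for AT4G25290 and AT2G37510, and number 2 for AT4G33500.

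**Figure D4:**
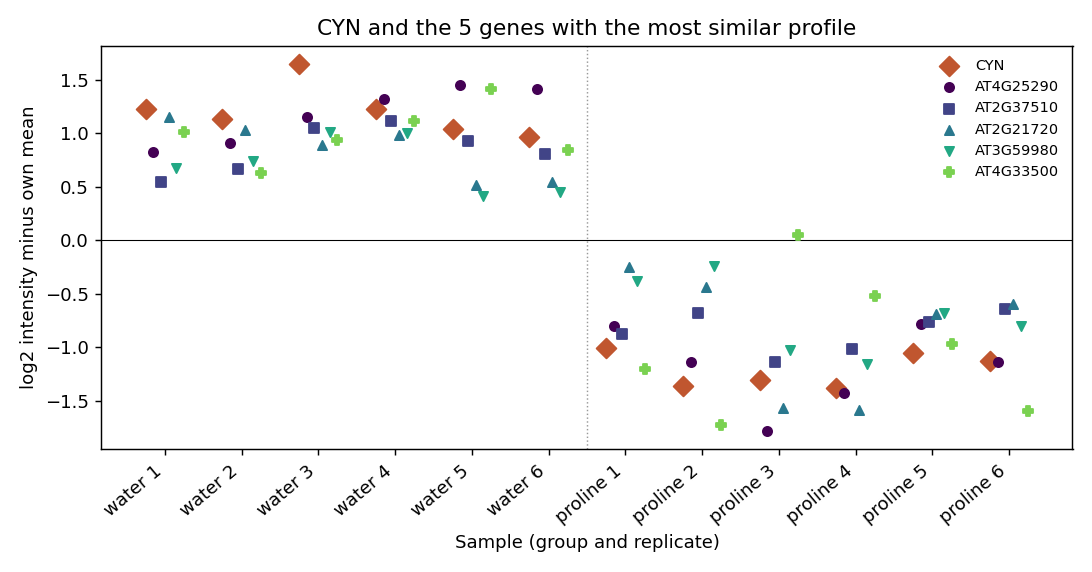
Log2 intensity minus the gene's own mean over 12 samples (y axis) in each sample (x axis) for CYN (large diamonds) and the 5 genes with the most similar profile. Every gene lies above 0 in the 6 water samples, and below 0 in the proline samples except AT4G33500 in proline sample 3, while the samples within a group are ordered differently from gene to gene.

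The genes that surround cyanase in metabolism were almost all outside the named part of the array. Of 63 genes on 6 lists, 1 had a probe of its own. The lists of cyanide, thiocyanate and nitrile metabolism (13 genes), carbonic anhydrases, which make bicarbonate (14), ammonium assimilation and transport (15), nitrate and nitrite reduction (3) and proline synthesis and breakdown (7) had 0 such genes. They are not analysed here. The 11 genes of carbamoyl phosphate, arginine and urea metabolism had 1, AT5G10920, entered there for arginine synthesis, and OTC appeared only on a probe shared with other genes. AT5G10920 stood between 0.608 and 0.865 in water, median 0.752, and between 0.984 and 1.49 in proline, median 1.24. The groups did not overlap, as for 10.4% of all tested probes with proline above water. AT5G10920 rose 1.67-fold with proline (log2 fold change 0.74, SE 0.12, limma adjusted p = 0.000323), a call made for 17.1% of all tested probes in that direction. It passed in 22 of 22 alternatives, with limma adjusted p from 2.85e-06 as deposited to 0.0247 with the means of pairs. As deposited the median of all probes rose too, by 0.41, and the log2 fold change of AT5G10920 was 1.24, or 0.82 relative to that median. The protein-coding genes next to CYN on the chromosome, AT3G23480 and AT3G23510, have no probe listed.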

How the data were processed

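The authors deposited 1 table of expression array intensities for 12 samples. From the values, the scale is linear and runs from 0 to 100. No source used here gives the array type, the scanning, the background correction or the scaling, and what 0 and 100 stand for is unknown. Groups and replicate numbers came from the sample titles, and all columns belonged to these samples.

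The platform annotation, which can be old, listed 692 probes with 1 gene, 870 with several and 1877 with none. Gene numbers linked 690 of the 692 to names in TAIR10.1. No coordinates are given, since the build of the array design is not stated, and no sequences were used.

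Values were quantile-normalized, set to a floor of 0.0377 (the 5th percentile of the positive deposited values) and taken to log2. This left 342 probes at the floor throughout, which were not tested, and 3097 that were fitted in limma 3.58.1 (R 4.3.3), with two-sided p-values adjusted by Benjamini-Hochberg over all 3097 and a threshold of 0.05. On data simulated for proline against water with 3097 probes and 200 changed, the fit recovered 31.3%, 73.1% and 92.4% of changes of 0.5, 1 and 2 log2, with 4.38% of calls false. That setting differs from these data, where 1176 probes were called and the 6 samples of a group may include repeat measurements. Its shares therefore do not carry over to the calls given here. No label says that the samples are separate plants, so p-values measure only how these samples scatter, and that may be technical.

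Samples of the same number in the 2 groups deviated together from their group means over all probes, with correlations of 0.16 to 0.47, above the limit of 0.1. The largest correlation with another number ran from 0.082 to 0.174, so the limit alone does not separate the numbers. For each number it was below the correlation within that number, and the numbers were taken as a possible pairing. The fit without the block was kept as planned, so calls and p-values leave this pairing out unless the block is named.

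The gene, the lists and the alternatives were chosen with earlier results of these data known. Besides CYN, the rule named list genes with a probe of their own, the 5 nearest profiles, the 2 probes with 1 gene next above and below in mean level, the next in order of change, and chromosome neighbours. Of the last, none had a probe of its own. The alternatives were 3 other scalings, 2 other floors, 3 other choices of probes or samples, a replicate block, means of pairs, leaving out each sample, and 2 other definitions of similar level. A promoter motif search was planned and not run.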

Additional observations from a re-analysis of the deposited data

Results flagged for a closer look

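CYN stood at 12.035 in water sample 3, apart from the other 5 water samples, which lay between 7.51 and 9.04. What drew attention was the gap to the nearest of them, 0.663 of the range of the group, and 0.643 in the values as deposited. Among 22 groups of 6 values examined this was the only sample picked out by such a gap, and chance picks out about 1 in 20 groups, so the value is given as a description. Water samples 3 and 4 may also be repeat measurements, and sample 4 stood at 9.04.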

How the results depend on the processing

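CYN was lower with proline under all 22 alternatives, with log2 fold changes from -2.86 to -2.24. It had the lowest change among probes of similar level in 24 of 24. The choice of CYN used its change in these samples, so both counts are a description. Leaving out samples could not reverse the direction of CYN, whose groups did not overlap. The other floors, leaving out probes by brightness, the replicate block and the means of pairs could not move its log2 fold change from -2.41. These alternatives are therefore no check of that value. Median centring moved its water level to 11.4 and its log2 fold change to -2.86. Its place among all tested log2 fold changes was 1 under median centring, with the values as deposited and with the floor at the 20th percentile, 6 after cyclic loess and 129 without a floor. Leaving out each sample in turn moved that place between 1, without proline replicate 3, and 4; place 2 was reached without proline replicate 4. The means of pairs lowered the probes passing the limma test from 1176 to 530. With the replicate block 1282 passed. Among AT5G10920 and the genes next above and below CYN in level, XERICO alone changed its call with the block. Averaging the sample pairs left XERICO short of the threshold (limma adjusted p = 0.303). Leaving out each sample gave a log2 fold change of CYN from -2.46 to -2.31 and 1075 to 1136 probes passing. XERICO also passed without water replicate 5, water replicate 6 or proline replicate 1 (limma adjusted p = 0.0487, 0.0452 and 0.047). No source gives signal over background, so the lowest reliable intensity is unknown.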
